A study of Mus musculus with 27 samples.

Results

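The cluster described here is a run of microRNA genes on the minus strand of mouse chromosome X, from miR-743a to miR-465a. Its members were taken by position alone, as every locus of 4 deposited microRNA tables that lies on that strand between positions 64029935 and 64092296 of the mm9 build, a span of 62362 bp. This gave 38 of the 2035 loci in the tables, the 5p and 3p arms of 19 hairpins. The 38 loci carry 34 mature names and 32 distinct mature sequences, because several miR-465 copies are identical.

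The microRNAs were measured in CJ7 cells, a line of mouse embryonic stem (ES) cells, grown with leukemia inhibitory factor (LIF) and serum, in Eed-/-, Ezh2-/-, Jarid2-/- and wild-type cells. Small RNA of 18 to 40 nt was gel-selected and sequenced on a SOLiD instrument. The labels list 2 small RNA samples for Eed-/-, 2 for Ezh2-/-, 1 for Jarid2-/- and 2 for wild-type, but the tables give 1 column of counts per genotype, and whether a column pools both samples is not stated. The columns were tied to genotypes by name. The Eed-/- column has an unexplained letter before the gene's name, the Jarid2-/- column carries the older name Jumonji, and the wild-type column names the parental line and no mutant gene. How the mutant lines were derived is not stated in the sources used here, and Eed, Ezh2 and Jarid2 mRNA, which would check the labels, was not analysed here, nor were the chromatin samples of the series. With 1 column per genotype no test between genotypes was possible, and no difference below has a replicate check. All intervals are 95% intervals of counting error only, and reads without molecular identifiers are not independent molecules. In bulk RNA, fewer cells that express a microRNA and less of it per cell cannot be told apart.

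Mature microRNAs are cut from hairpin precursors, whose 2 arms give a 5p and a 3p product, and they pair with target messenger RNAs mainly through the seed, bases 2 to 8. The cluster belongs to the miR-506 family, a fast-evolving group of tandem duplicates on the X chromosome near Slitrk2 and Fmr1 that is known mainly for its expression in testis and male germ cells. Eed and Ezh2 are core subunits of Polycomb repressive complex 2 (PRC2), the enzyme that methylates lysine 27 of histone H3 at silent genes, and Jarid2 is a cofactor that helps recruit it. Which targets each cluster member has in ES cells is not something these tables measure.

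The mature sequences below, as the deposited tables give them, show how the duplicates relate. They are written 5′ to 3′ in lower case with the seed in capitals. All 34 names matched the RefSeq microRNA table for GRCm38.p6 with the same sequence. The first 9 are the members that reached 100 counts in any column, on which most values rest.
miR-880-3p: uACUCCAUccucucugaguaga
miR-878-3p: gCAUGACAccacacuggguaga
miR-465a-3p: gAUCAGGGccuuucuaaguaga
miR-741-3p: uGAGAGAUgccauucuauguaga
miR-743a-3p: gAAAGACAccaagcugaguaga
miR-743b-3p: gAAAGACAucaugcugaauaga
miR-463-5p: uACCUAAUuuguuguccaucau
miR-742-3p: gAAAGCCAccaugcuggguaaa
miR-883b-3p: uAACUGCAacaucucucaguau
The sequence printed for miR-465a-3p is also that of miR-465b-3p and miR-465c-3p. The next sequences share a seed with another member or have a near copy, so that their reads can be compared within a family.
miR-883a-3p: uAACUGCAacagcucucaguau
miR-465d-3p: uGAUCAGGgccuuucugaguaa
miR-465a-5p: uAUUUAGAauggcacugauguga
miR-465d-5p: uAUUUAGAaugguacugauguga
miR-465c-5p: uAUUUAGAauggcgcugaucug
miR-465b-5p: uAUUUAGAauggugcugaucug
miR-743a-5p: uAUUCAGAuuggugccugucau
miR-871-5p: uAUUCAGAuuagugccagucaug
The last one is shown because its 2 arms were divided differently between columns.
miR-470-5p: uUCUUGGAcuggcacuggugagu

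The 32 sequences held 26 different seeds. MiR-743a-3p and miR-743b-3p shared AAAGACA, miR-883a-3p and miR-883b-3p shared AACUGCA, and miR-743a-5p shared AUUCAGA with miR-871-5p. All 4 miR-465 5p sequences had the seed AUUUAGA. Counted from 1 at the 5′ end of miR-465a-5p, miR-465d-5p differed by C13U, miR-465c-5p by A14G and G20C, and miR-465b-5p by C13U, A14G and G20C, all outside the seed. MiR-465d-3p begins 1 nt earlier on the shared sequence than miR-465a-3p, which moves its seed to GAUCAGG, against AUCAGGG for the other copies. With that offset of 1 nt, and counted on miR-465a-3p, it differed from it by A16G and G21A. Only 1 of the 26 seeds, GUUCAGA of miR-743b-5p, occurred in a mature name outside the cluster, miR-6948-5p.

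The sequences also share their ends. Of the 15 distinct 3p sequences, 7 ended in UAGA (46.7%), against 4 of 771 distinct 3p sequences elsewhere in the tables (0.519%). Of the 17 distinct 5p sequences, 13 began with UA (76.5%), against 66 of 763 elsewhere (8.65%). The duplicates are related by descent, so these shares describe a family and its members are not independent. Neighbouring hairpins lay 392 to 9132 bp apart, with a median of 3247 bp, and the 6 miR-465 hairpins followed each other at steps of 3247 to 3315 bp. In the RefSeq gene table for GRCm38.p6, used for names only, the 19 microRNA genes are bordered by Slitrk2 and predicted genes, with 1 pseudogene, Gm14681, inside.

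The cluster was a very small part of the microRNA pool. Its 38 loci held 7228 counts in Eed-/- cells, 1137 in Ezh2-/- cells, 404 in Jarid2-/- cells and 1997 in wild-type cells. These came from column totals of 42293019, 32074712, 8485806 and 23793733 microRNA counts in the same order, so the cluster held 0.0171%, 0.00354%, 0.00476% and 0.00839% of them. Levels below are counts-per-million (CPM) of that total. The miR-290 to miR-295 loci, the most typical ES cell microRNAs, took 44.4% of counts in Eed-/-, 45.9% in Ezh2-/-, 38.2% in Jarid2-/- and 39.7% in wild-type cells, so these loci were abundant in every column. A floor of 3 counts corresponds to 0.0709 CPM in the Eed-/- column, 0.0935 CPM in the Ezh2-/- column, 0.354 CPM in the Jarid2-/- column and 0.126 CPM in the wild-type column. A member at a level between 0.0709 and 0.354 CPM can thus be seen in the Eed-/- column and missed in the Jarid2-/- column.

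Some members share reads. The 5 loci of miR-465a-3p, miR-465b-3p and miR-465c-3p had 1 and the same count in each column, as did the 2 loci of miR-465b-5p and the 2 of miR-465c-5p. Counting a read at every matching locus would give this. Splitting it evenly would too, but the counts are whole numbers, so the totals would have to divide evenly or be rounded. Which was done is not stated. Sums over the 38 loci may thus count reads several times. Folds below therefore count each of the 32 distinct sequences once unless loci are named. If reads were split, counting once understates the shared miR-465 sequences, and the sum over all 38 loci is the fitting one. Rankings of sequences below, and shares of distinct counts, rest on counting once.

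By column totals, the cluster as a whole was most abundant in Eed-/- cells and least abundant in Ezh2-/- cells. Summed over distinct sequences, it stood at 107 CPM in Eed-/- cells (interval 104 to 111), 18.4 CPM in Ezh2-/- cells (16.9 to 19.9), 31.3 CPM in Jarid2-/- cells (27.7 to 35.3) and 53.7 CPM in wild-type cells (50.8 to 56.7). None of the 4 intervals overlapped its neighbour in that order. The fold over wild-type was 2.00 in Eed-/- cells (1.88 to 2.13). The cluster was 2.92-fold lower in Ezh2-/- cells than in wild-type cells (2.64 to 3.22) and 1.71-fold lower in Jarid2-/- cells (1.5 to 1.96). All 3 folds use the same wild-type column, so a misread wild-type level would move them together. Between mutants, Jarid2-/- cells had 1.70 times the level of Ezh2-/- cells by column totals (1.47 to 1.97). That interval does not cover the choice of scaling, and the order of these mutants turned with it. Summed over all loci of the cluster, edgeR's TMM factors put Ezh2-/- cells at 0.700 times wild-type and Jarid2-/- cells at 0.557 times.

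**Figure D1:**
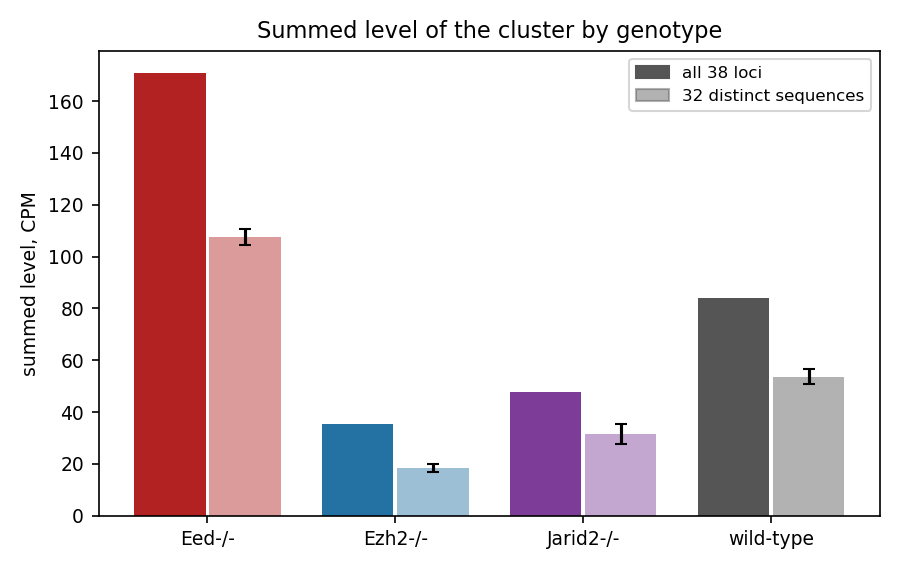
Summed level of the cluster in CPM for Eed-/-, Ezh2-/-, Jarid2-/- and wild-type cells, over all 38 loci (dark bars) and over the 32 distinct sequences (pale bars, with 95% counting intervals). The pale bars stand at 107, 18.4, 31.3 and 53.7 CPM.

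Over all 38 loci the sums were 170.9 CPM in Eed-/-, 35.4 CPM in Ezh2-/-, 47.6 CPM in Jarid2-/- and 83.9 CPM in wild-type cells, which is 2.04 times wild-type, 2.37-fold lower and 1.76-fold lower. The direction against wild-type held under every scaling tried, but the sizes, and the order of Ezh2-/- and Jarid2-/- cells, did not. With edgeR's TMM factors the 38 loci were 1.43-fold lower in Ezh2-/- and 1.80-fold lower in Jarid2-/- cells. With DESeq2's size factors they were 1.65-fold and 1.92-fold lower, so Jarid2-/- cells were lowest with both. With the denominators of the deposited reads-per-million (RPM) values the Eed-/- fold was 3.34. The sum of the remaining chromosome X loci had another order. It stood at 79694 CPM in Eed-/-, 131558 CPM in Ezh2-/-, 114627 CPM in Jarid2-/- and 107445 CPM in wild-type cells, a fold over wild-type of 0.742, 1.22 and 1.07 for the 3 mutants. Abundant loci weigh most in that sum, and locus by locus 53 of 78 other chromosome X loci lay below wild-type in Ezh2-/- cells, with a median log2 ratio of -0.56 by the rule given next.

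A locus was counted in a comparison when 1 of its 2 columns had at least 10 counts, and called higher or lower at 2-fold or more of CPM plus a pseudocount of 1 CPM, a scale that understates low loci. In Eed-/- against wild-type cells, 34 of the 38 members were counted, 4 were called higher and 0 lower, against 17.5% higher and 15% lower over all 1096 loci counted. The 4 were miR-463-5p, miR-470-5p, miR-743b-3p and miR-742-3p. The share called higher was thus below the background, while the median log2 ratio was 0.69 for the members and 0.08 for all loci. In all, 31 of the 34 lay above 0 and 3 below, against 590 above and 506 below over all loci. Of the 34, 15 were under 1 CPM in both columns, where a ratio with this pseudocount cannot pass 2-fold. With a pseudocount of 0.1 CPM 19 of 34 were called higher, against 25.6% of all loci.

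In Ezh2-/- against wild-type cells, 20 members were counted and all 20 lay below 0, against 704 of 1000 over all loci. Of the 20, 0 were called higher and 4 lower, against 4.9% and 24.5% of all loci, so the share called lower was near the background. The 4 were miR-880-3p, miR-741-3p, miR-878-3p and miR-743b-3p. The median log2 ratio was -0.75 for the members and -0.44 for all loci, so the whole table was shifted in the same direction, and relative to it the members stood 0.30 lower. With a pseudocount of 0.1 CPM 13 of 20 were called lower, against 34.5% of all loci.

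In Jarid2-/- against wild-type cells, 20 members were counted, with 19 below 0 and 1 above, against 537 below and 413 above over all loci. Of the 20, 0 were called higher and 1, miR-880-3p, lower, against 16.3% and 22.8% of all loci. The median log2 ratio was -0.57 for the members and -0.17 for all loci. With a pseudocount of 0.1 CPM 5 of 20 were called lower, against 30.7% of all loci. At 1 CPM and with column totals the called share did not exceed the background in any of the 3 comparisons, but with the RPM denominators 15 of 34 members were called higher in Eed-/- cells, against 350 of 1096 loci. A member that enters only through its higher column is bound to differ, and the 5 loci of the shared miR-465 3p sequence enter 5 times, so these counts describe the cluster and support nothing further.

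The levels of the individual loci in the 4 genotypes follow, with the most abundant sequences first when each is counted once.

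**Figure D2:**
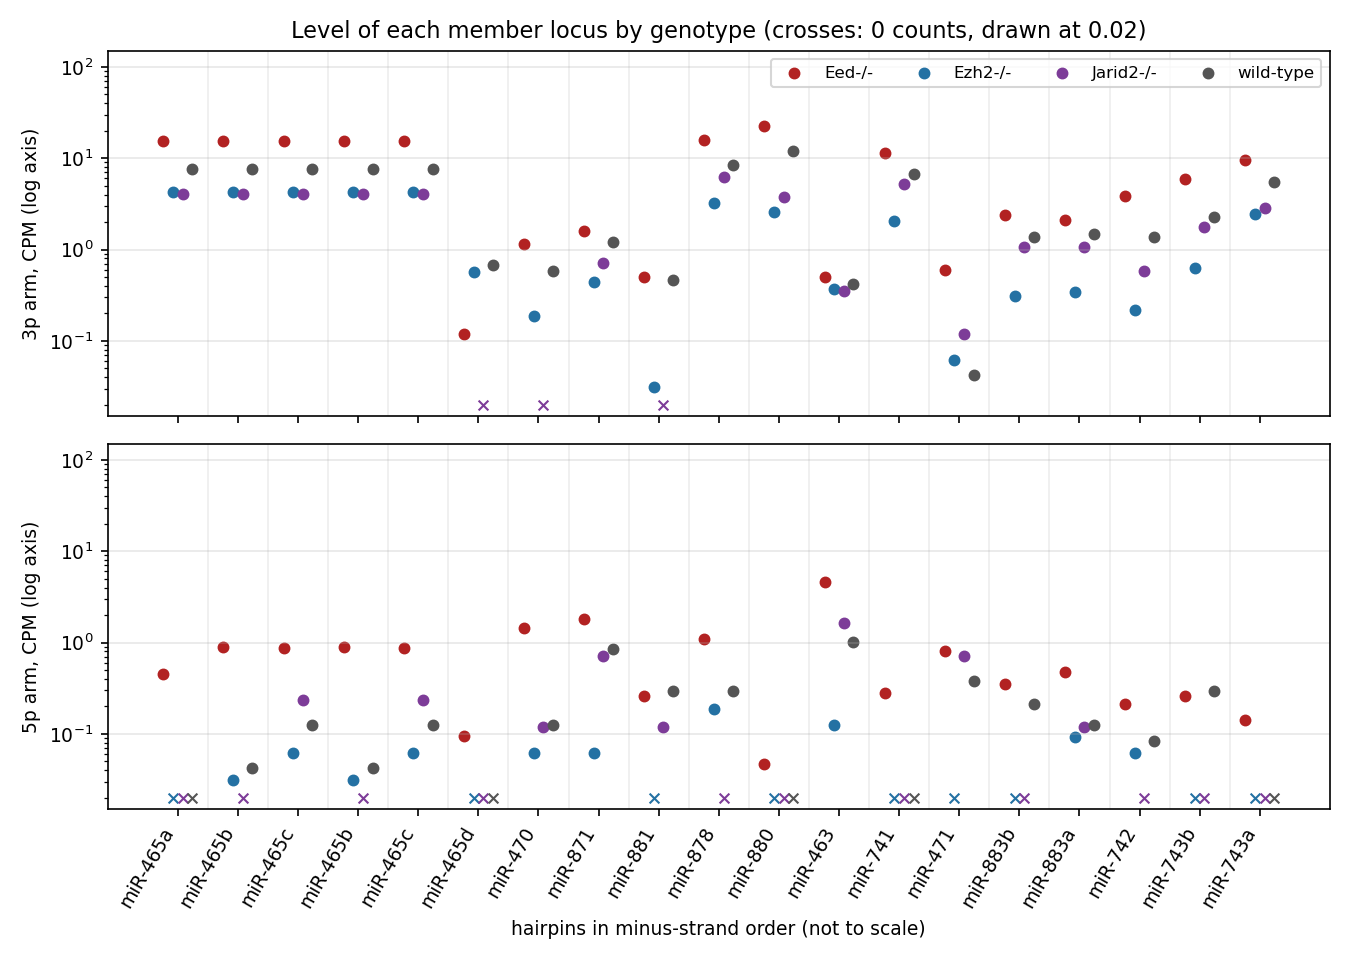
Level of each of the 38 loci in CPM on a log axis, 3p arms above and 5p arms below, with hairpins in minus-strand order and a cross for 0 counts. Eed-/- points lie above wild-type at most loci, miR-465d-3p is the clearest exception, and most 5p loci stay under 1 CPM.

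With each sequence counted once, the 3p arm of miR-880 was the most abundant in Eed-/- and wild-type cells. If reads of the shared miR-465 3p sequence were split between its loci, that sequence would rank above it. It had 948 counts in Eed-/- cells (22.4 CPM), 82 in Ezh2-/- cells (2.56 CPM), 32 in Jarid2-/- cells (3.77 CPM) and 283 in wild-type cells (11.9 CPM). That is 1.89 times wild-type in Eed-/- cells (1.65 to 2.16), 4.65-fold lower in Ezh2-/- cells (3.63 to 6.02) and 3.15-fold lower in Jarid2-/- cells (2.18 to 4.70). Both intervals lie beyond those of the whole cluster, so in Ezh2-/- and Jarid2-/- cells miR-880-3p stood further below wild-type than the sum did.

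MiR-878-3p had 667 counts in Eed-/- cells (15.8 CPM), 104 in Ezh2-/- cells (3.24 CPM), 53 in Jarid2-/- cells (6.25 CPM) and 200 in wild-type cells (8.41 CPM). Its fold over wild-type was 1.88 in Eed-/- cells (1.60 to 2.21), and it was 2.59-fold lower in Ezh2-/- cells (2.03 to 3.32). The Jarid2-/- level was 1.35-fold lower with an interval from 0.990 to 1.86 that includes no difference. MiR-878-3p was the most abundant distinct sequence of the Jarid2-/- column, again with each sequence counted once.

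The shared 3p sequence of miR-465a, miR-465b and miR-465c had 652 counts at each of its 5 loci in Eed-/- cells (15.4 CPM), 136 in Ezh2-/- cells (4.24 CPM), 34 in Jarid2-/- cells (4.01 CPM) and 179 in wild-type cells (7.52 CPM). It was the most abundant distinct sequence in Ezh2-/- cells. The fold was 2.05 in Eed-/- cells (1.73 to 2.43), with a 1.77-fold lower level in Ezh2-/- cells (1.41 to 2.23) and a 1.88-fold lower one in Jarid2-/- cells (1.30 to 2.80). In Ezh2-/- cells it stood less far below wild-type than the sum did, with an interval that does not reach 2.92. With TMM factors its Ezh2-/- level was 1.07-fold lower, and the interval then includes 1 (0.852 to 1.35), as it does with DESeq2's size factors at 1.24-fold lower (0.986 to 1.56).

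MiR-741-3p had 483 counts in Eed-/- cells (11.4 CPM), 66 in Ezh2-/- cells (2.06 CPM), 44 in Jarid2-/- cells (5.19 CPM) and 159 in wild-type cells (6.68 CPM). The Eed-/- fold was 1.71 (1.43 to 2.06) and the Ezh2-/- level 3.25-fold lower (2.42 to 4.40), while the Jarid2-/- level was 1.29-fold lower with an interval that includes 1 (0.918 to 1.84).

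The seed partners miR-743a-3p and miR-743b-3p differed in abundance. MiR-743a-3p had 408 counts in Eed-/- cells (9.65 CPM), 79 in Ezh2-/- cells (2.46 CPM), 24 in Jarid2-/- cells (2.83 CPM) and 129 in wild-type cells (5.42 CPM). MiR-743b-3p had 251 counts in Eed-/- cells (5.93 CPM), 20 in Ezh2-/- cells (0.624 CPM), 15 in Jarid2-/- cells (1.77 CPM) and 54 in wild-type cells (2.27 CPM). Their folds over wild-type in Eed-/- cells were 1.78 (1.46 to 2.19) and 2.62 (1.94 to 3.58). In Ezh2-/- cells miR-743a-3p was 2.20-fold lower (1.65 to 2.95) and miR-743b-3p 3.64-fold lower (2.14 to 6.42), intervals that overlap. In Jarid2-/- cells miR-743a-3p was 1.92-fold lower (1.23 to 3.10) and miR-743b-3p 1.28-fold lower (0.714 to 2.45). Pooled over this seed, counts were 659, 99 and 39 in Eed-/-, Ezh2-/- and Jarid2-/- cells, against 183 in wild-type cells.

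MiR-742-3p had 162 counts in Eed-/- cells (3.83 CPM), 7 in Ezh2-/- cells (0.218 CPM), 5 in Jarid2-/- cells (0.589 CPM) and 33 in wild-type cells (1.39 CPM). It was 2.76 times wild-type in Eed-/- cells (1.89 to 4.15) and 6.36-fold lower in Ezh2-/- cells (2.76 to 17). MiR-883b-3p had 102 counts in Eed-/- cells (2.41 CPM), 10 in Ezh2-/- cells (0.312 CPM), 9 in Jarid2-/- cells (1.06 CPM) and 33 in wild-type cells (1.39 CPM). It was 1.74 times wild-type in Eed-/- cells (1.16 to 2.66) and 4.45-fold lower in Ezh2-/- cells (2.14 to 10.1). Its seed partner miR-883a-3p had nearly the same counts, 89 in Eed-/-, 11 in Ezh2-/-, 9 in Jarid2-/- and 35 in wild-type cells. In Jarid2-/- cells miR-742-3p was 2.35-fold lower (0.913 to 7.72), and miR-883b-3p was 1.31-fold lower (0.612 to 3.11). The intervals of both include 1.

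MiR-463-5p was the only 5p sequence with at least 100 counts in a column and had the widest range of the 9. It had 194 counts in Eed-/- cells (4.59 CPM), 4 in Ezh2-/- cells (0.125 CPM), 14 in Jarid2-/- cells (1.65 CPM) and 24 in wild-type cells (1.01 CPM). The Eed-/- fold was 4.55 (2.97 to 7.27), with an interval above the fold of the sum, and the Ezh2-/- level was 8.09-fold lower (2.78 to 32.1). It was also the only one of the 9 that was higher in Jarid2-/- than in wild-type cells, by 1.64 times with an interval that includes 1 (0.782 to 3.29).

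Across these 9 sequences, all 9 were higher in Eed-/- and all 9 lower in Ezh2-/- than in wild-type cells. The choice of the 9 bears on this, since 4 of them, miR-743b-3p, miR-742-3p, miR-883b-3p and miR-463-5p, reached 100 counts only in the Eed-/- column, which is also the deepest, and so were likely to stand high there. The other 5 reached 100 counts in the wild-type column too. By column totals, the order from high to low was Eed-/-, wild-type, Jarid2-/-, Ezh2-/- for 7 of the 9. Several of its steps are weak, since the Jarid2-/- fold over wild-type had an interval below 1 for only 3 of the 9. The step between Jarid2-/- and Ezh2-/- was 2.83 against 2.46 CPM for miR-743a-3p and rests on 5 and 7 counts for miR-742-3p. It also turned with scaling. With TMM miR-743a-3p stood at 0.753 times wild-type in Ezh2-/- and 0.512 times in Jarid2-/- cells. MiR-880-3p then stood at 0.356 and 0.311 times, and both turned with size factors too, while the rest of the 7 kept the order with TMM. For miR-463-5p Jarid2-/- stood above wild-type, and for the shared miR-465 3p sequence Ezh2-/- stood above Jarid2-/-, at 4.24 and 4.01 CPM, a gap within counting error. The Eed-/- and Ezh2-/- directions were the same under all 4 other scalings, but TMM brought every Ezh2-/- fold nearer to 1, to between 1.07-fold lower for the shared miR-465 3p sequence and 4.88-fold lower for miR-463-5p. The interval then excluded 1 for 7 of the 9, and not for that sequence or for miR-743a-3p (1.33-fold lower, 0.996 to 1.78). In Jarid2-/- cells, scaling by the RPM denominators put 4 of the 8 lower sequences above wild-type, miR-743b-3p, miR-883b-3p, miR-741-3p and miR-878-3p, each with an interval that includes no difference. MiR-463-5p then stood at 2.31 times wild-type with an interval that excludes 1 (1.10 to 4.65). Only miR-880-3p kept an interval below 1, at 0.447 times wild-type (0.300 to 0.646).

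**Figure D3:**
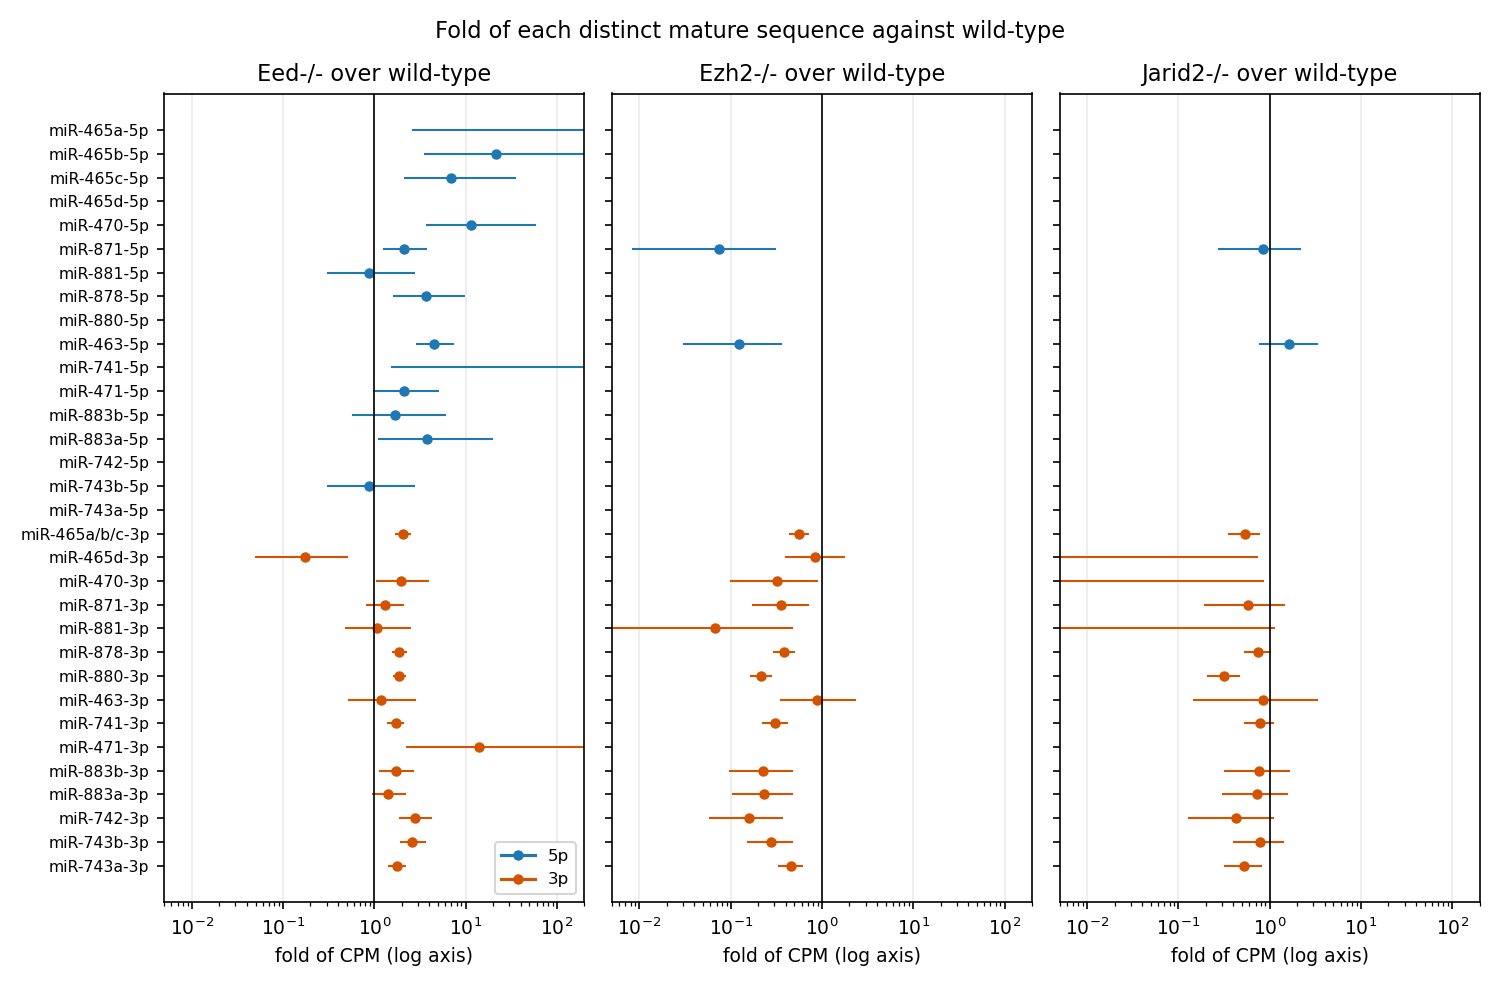
Fold of CPM over wild-type on a log axis for each distinct mature sequence in Eed-/-, Ezh2-/- and Jarid2-/- cells, with 95% counting intervals clipped at the axis ends, lines without a point where 1 column has 0 counts, and no mark where both columns have under 10 counts. Eed-/- points lie to the right of 1 except miR-465d-3p, miR-881-5p and miR-743b-5p, and all drawn Ezh2-/- points lie to the left. Only folds by column totals are drawn. With the RPM denominators, not drawn, miR-743b-3p, miR-883b-3p, miR-741-3p and miR-878-3p would lie to the right of 1 in Jarid2-/- cells.

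Over all 32 distinct sequences, 29 were higher and 3 lower in Eed-/- than in wild-type cells, and the interval excluded 1 for 19 of the 29 and for 1 of the 3. Over all 1530 distinct sequences of the tables with a count in either column, 23.5% had an interval above 1 and 24.5% one below it. In Ezh2-/- cells 1 was higher, 26 were lower and 5 had 0 counts in both columns, with 18 intervals below 1, against 35.8% of 1448 sequences in the tables. In Jarid2-/- cells 4 were higher, 23 lower and 5 at 0 in both, with 5 intervals below 1, against 25.8% of 1372. How often an interval excludes 1 depends on abundance and on scaling, and the shares over the tables were taken with column totals only. The 19 in Eed-/- cells became 16 with size factors and 23 with the RPM denominators. The 18 in Ezh2-/- cells became 13 with TMM and 14 with size factors. The Jarid2-/- count became 1 with the RPM denominators and 8 with totals that leave out the Gtl2-Rian-Mirg and miR-290 loci. The 1 sequence higher in Ezh2-/- cells, miR-471-3p, rests on 2 counts in Ezh2-/- against 1 in wild-type cells.

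The 5p arms were where Eed-/- cells stood furthest from wild-type. Summed over distinct 5p sequences, counts were 595 in Eed-/-, 22 in Ezh2-/-, 31 in Jarid2-/- and 91 in wild-type cells. The 5p fold was 3.68 in Eed-/- cells (2.95 to 4.64), against 1.87 for the 3p arms (1.76 to 2.00), and the intervals do not overlap. In Ezh2-/- cells the 5p arms were 5.58-fold lower than in wild-type cells (3.47 to 9.33) and the 3p arms 2.81-fold lower (2.54 to 3.12). In Jarid2-/- cells the 5p level was 0.955 times wild-type (0.614 to 1.45). The 3p level there was 0.556 times wild-type (0.481 to 0.640), which is 1.80-fold lower (1.56 to 2.08), and the 5p and 3p intervals overlap. Of the 31 Jarid2-/- 5p counts, 14 were of miR-463-5p, 6 of miR-471-5p and 6 of miR-871-5p.

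As a share within a column, which no scaling can move, 5p reads were 13.1% of the cluster's counts in Eed-/- cells (12.1 to 14.1), 3.73% in Ezh2-/- cells (2.35 to 5.59), 11.7% in Jarid2-/- cells (8.06 to 16.1) and 7.13% in wild-type cells (5.78 to 8.68). Over all loci of the tables the share was 33.1% in Eed-/-, 27.3% in Ezh2-/-, 34.5% in Jarid2-/- and 27% in wild-type cells, so it was also highest in the Eed-/- and Jarid2-/- columns there. How much of the difference in the cluster follows the whole table was not tested.

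Few hairpins had a well counted 5p arm. MiR-463 gave 90.2% of its reads from the 5p arm in Eed-/- cells (85.5 to 93.9), 25% of 16 reads in Ezh2-/- cells (7.27 to 52.4), 82.4% of 17 in Jarid2-/- cells (56.6 to 96.2) and 70.6% of 34 in wild-type cells (52.5 to 84.9). The Ezh2-/- column was thus the only one in which its 3p arm held most reads, and its interval ends just below that of wild-type. MiR-470 gave 55.5% of 110 reads from the 5p arm in Eed-/- cells (45.7 to 64.9) and 17.6% of 17 in wild-type cells (3.8 to 43.4). Behind that are 61 reads of miR-470-5p in Eed-/-, 2 in Ezh2-/-, 1 in Jarid2-/- and 3 in wild-type cells, an Eed-/- fold of 11.4 (3.73 to 57.0). MiR-871 gave 53.1% of 143 reads from the 5p arm in Eed-/- cells (44.6 to 61.5), 12.5% of 16 in Ezh2-/- cells (1.55 to 38.3), 50% of 12 in Jarid2-/- cells (21.1 to 78.9) and 40.8% of 49 in wild-type cells (27 to 55.8). Its Eed-/- and wild-type intervals overlap.

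**Figure D4:**
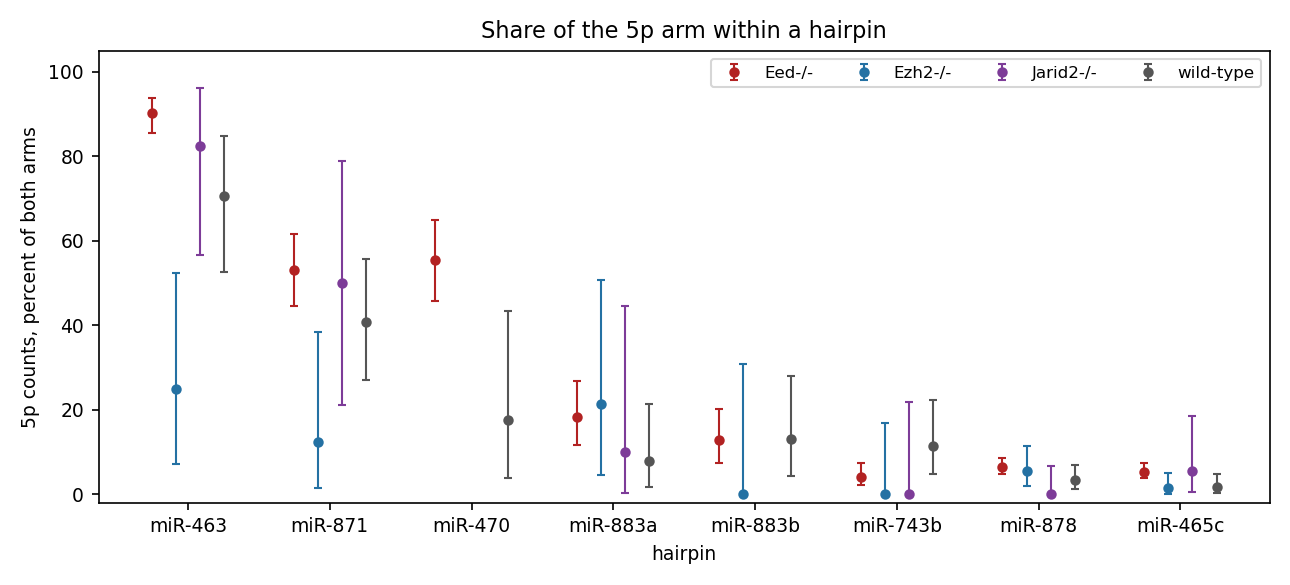
Share of 5p counts within a hairpin, in percent with 95% Clopper-Pearson intervals, for 8 hairpins chosen after their values were seen, drawn for columns with at least 10 counts of both arms together. MiR-463 stands at 90.2% in Eed-/- and 25% in Ezh2-/- cells, against 70.6% in wild-type cells, and miR-470 at 55.5% in Eed-/- cells, against 17.6% in wild-type cells. Of the hairpins with a lower share in Eed-/- than in wild-type cells, miR-743b and miR-883b are drawn, and miR-471, miR-742 and miR-881 are not.

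Hairpin by hairpin the difference was not uniform. Between Eed-/- and wild-type cells among hairpins with at least 10 counts in both columns and identical copies kept apart, the 5p share was higher in 13 of 18 and lower in 5, with a median difference of 2.95 percentage points, against 266 higher and 177 lower of 457 hairpins elsewhere and a median of 0.35 points. Among the 13, miR-465a, miR-741, miR-743a and miR-880 had 0 wild-type 5p reads, so their share could not come out lower. MiR-465b and miR-465c are also among the 13, each entered at 2 loci with the same counts. The 13 of 18 thus describes these hairpins and supports nothing further. MiR-471 went the other way, with 57.6% of 59 reads from the 5p arm in Eed-/- cells and 90% of 10 in wild-type cells. Its 3p arm had 25 counts in Eed-/-, 2 in Ezh2-/-, 1 in Jarid2-/- and 1 in wild-type cells, an Eed-/- fold of 14.1 (2.30 to 577). In Ezh2-/- cells 4 of 15 cluster hairpins had a higher 5p share and 6 a lower one, against 221 and 186 of 427 elsewhere. The Jarid2-/- column had 5 of 13 with a higher and 4 with a lower share, against 217 and 157 of 384 elsewhere.

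The miR-465 copies behaved differently by arm. Their 5p reads, pooled over the 4 sequences that share a seed, numbered 98 in Eed-/-, 3 in Ezh2-/-, 2 in Jarid2-/- and 4 in wild-type cells, an Eed-/- fold of 13.8 (5.22 to 51.6). MiR-465b-5p had 38 counts in Eed-/- and 1 in wild-type cells (fold 21.4, 3.61 to 866), and miR-465c-5p 37 in Eed-/- and 3 in wild-type cells (fold 6.94, 2.20 to 35.2). MiR-465a-5p had 19 counts in Eed-/- cells and 0 in the other 3 columns, a fold over wild-type of 3.56 with the wild-type column set at the floor of 3 counts, and a lower limit of 2.63 by the counting interval. Even so, the 3p arm of these hairpins stayed far ahead, with 5.51% of miR-465b reads from the 5p arm in Eed-/- cells (3.93 to 7.48).

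MiR-465d-3p, the copy whose 5′ end is offset by 1 nt, was the exception to the Eed-/- direction. It had 5 counts in Eed-/-, 18 in Ezh2-/-, 0 in Jarid2-/- and 16 in wild-type cells. The level in Eed-/- cells was 5.69-fold lower than in wild-type cells (1.99 to 19.9), while in Ezh2-/- cells it was 1.20-fold lower with an interval that includes 1 (0.572 to 2.49). Because its sequence overlaps the other copies over most of its length, the split of reads between it and them depends on the mapping, whose settings are not stated in the sources used here.

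The other members had under 100 counts in every column, and those singled out here and above were chosen after their values were seen. Of the 5p arms not yet given, miR-878-5p had 46 counts in Eed-/-, 6 in Ezh2-/-, 0 in Jarid2-/- and 7 in wild-type cells, an Eed-/- fold of 3.70 (1.66 to 9.71). MiR-871-5p had 76 in Eed-/-, 2 in Ezh2-/-, 6 in Jarid2-/- and 20 in wild-type cells, which is 2.14 times wild-type in Eed-/- cells (1.29 to 3.69) and 13.5-fold lower in Ezh2-/- cells (3.27 to 119). MiR-741-5p had 12 counts in Eed-/- cells and 0 elsewhere, a fold of 2.25 with wild-type at the same floor and a lower limit of 1.56 by the counting interval. MiR-743a-5p, miR-880-5p and miR-465d-5p were also seen only in Eed-/- cells, the deepest column, with 6, 2 and 4 counts, at most 0.142 CPM.

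Among the sparse 3p arms, miR-871-3p had 67 counts in Eed-/-, 14 in Ezh2-/-, 6 in Jarid2-/- and 29 in wild-type cells, and miR-470-3p had 49, 6, 0 and 14 in that order. MiR-881-3p had 21 counts in Eed-/-, 1 in Ezh2-/-, 0 in Jarid2-/- and 11 in wild-type cells, so its Eed-/- fold of 1.07 (0.495 to 2.47) was near 1 while it was 14.8-fold lower in Ezh2-/- cells (2.16 to 638). MiR-463-3p varied least, at 0.497 CPM in Eed-/-, 0.374 CPM in Ezh2-/-, 0.354 CPM in Jarid2-/- and 0.420 CPM in wild-type cells, and the intervals of its 3 folds include 1. These levels rest on 21, 12, 3 and 10 counts in that order, and the Jarid2-/- value is at the floor. Its Jarid2-/- fold has an interval from 0.149 to 3.27, so a steady level cannot be told from few reads. In all, 38 of the 38 loci had a count in Eed-/-, 29 in Ezh2-/-, 24 in Jarid2-/- and 33 in wild-type cells, in columns of unequal depth.

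The make-up of the cluster also differed between columns. MiR-880 gave 20.9% of distinct counts in Eed-/-, 13.9% in Ezh2-/-, 12% in Jarid2-/- and 22.2% in wild-type cells. The miR-465 copies gave 16.6% in Eed-/-, 26.6% in Ezh2-/-, 13.5% in Jarid2-/- and 15.6% in wild-type cells. MiR-878 stayed between 15.7% in Eed-/- and 19.9% in Jarid2-/- cells, with 18.6% in Ezh2-/- and 16.2% in wild-type cells. Of these, the miR-880 share was smaller than in wild-type in Ezh2-/- and Jarid2-/- cells, and the miR-465 share was larger in Ezh2-/- cells. Without the miR-465 loci the cluster was 1.98 times wild-type in Eed-/- cells (1.85 to 2.12), 3.36-fold lower in Ezh2-/- cells (3.00 to 3.76) and 1.67-fold lower in Jarid2-/- cells (1.45 to 1.94).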

How the data were processed

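The 4 deposited microRNA tables, 1 per genotype, give read counts per mature locus and reads-per-million (RPM) values, for miRBase release 20 per the file headers. Per the submitters' processing notes, cutadapt, Bowtie and mm9 were used. Neither versions and settings nor the handling of reads matching several loci is stated in the sources used here. No column was left out (0 unused). CPM was computed by dividing each deposited count by its column total; the deposited RPM uses a larger denominator, of which microRNAs were 15.8% for Eed-/-, 13.2% for Ezh2-/-, 13.6% for Jarid2-/- and 9.66% for wild-type. Loci with at least 10 counts in 1 of 2 columns were counted, and called at 2-fold of CPM plus 1. Folds carry exact conditional binomial and shares Clopper-Pearson 95% intervals; a count of 0 was bounded at 3 counts per column. With 1 column per genotype there was no test. Members with at least 100 counts in a column were described singly. The members and lists were chosen with earlier results of these data known. Alternatives were other scalings (TMM, edgeR 4.0.16; size factors, DESeq2 1.42.0; RPM denominators; totals without the Gtl2-Rian-Mirg and miR-290 loci), filters, pseudocounts of 0.1 and 10 CPM, and ways of counting copies and arms; 1 value per distinct sequence, and the rescaling of single members, were chosen after seeing the data. The procedure was tested on simulated data, drawn from the wild-type profile with counting error only and with changes placed at loci well counted in wild-type cells. That simulation does not cover sparse members or variation between replicates. Python 3.11.15 and R 4.3.3 were used.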

Additional observations from a re-analysis of the deposited data

How the results depend on the processing

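No paired analysis was possible because each genotype has 1 column, and only the Jarid2-/- column carries a replicate number. The sign of the cluster's summed log2 ratio and of its members' median was the same under every alternative run, and the sizes moved. The summed log2 ratio over 38 loci was 1.03 for Eed-/-, and 0.90 with TMM, 0.80 with size factors and 1.74 with RPM denominators. For Ezh2-/- it was -1.24, and -0.51, -0.73 and -0.80 with these scalings, -1.35 per mature name, -1.54 per distinct sequence, -1.75 without miR-465 and -1.13 without the most abundant member. For Jarid2-/- it was -0.82, and -0.85 with TMM, -0.94 with size factors and -0.32 with RPM denominators. With TMM and with size factors the Jarid2-/- value thus lay below the Ezh2-/- one. Scaling also turned the sign of the median of all loci, which was 0.08 for Eed-/- and -0.06 with size factors, -0.44 for Ezh2-/- and 0.09 with TMM, and -0.17 for Jarid2-/- and 0.20 with RPM denominators. Relative to it the members' median was 0.48 to 0.62 for Eed-/-, -0.48 to -0.30 for Ezh2-/- and -0.54 to -0.33 for Jarid2-/- over the 5 scalings. Calls over all loci, 192 higher and 164 lower for Eed-/-, became 130 and 194 with size factors and 350 and 106 with RPM denominators. For Ezh2-/-, 49 and 245 became 144 and 163 with TMM, 110 and 189 with size factors and 93 and 185 with RPM denominators. For Jarid2-/-, 155 and 217 became 253 and 176 with RPM denominators.

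The 4 members called higher in Eed-/- became 1 with TMM, 1 with size factors, 15 with RPM denominators, 19 at a pseudocount of 0.1 and 0 at 10, and the 0 called lower became 1 at 0.1. The 4 called lower in Ezh2-/- became 1 with each of these 3 scalings, 13 at 0.1 and 0 at 10. The 1 called lower in Jarid2-/- became 0 with RPM denominators, 5 at 0.1 and 0 at 10. The members' median for Eed-/-, 0.69, became 0.95 with RPM denominators and 0.95 at a minimum of 100 counts, 1.03 at 0.1, 0.11 at 10 and 0.88 per hairpin. For Ezh2-/-, -0.75 became -0.39 with TMM, -0.49 with size factors, -0.47 with RPM denominators, -0.50 at a minimum of 1 count, -1.32 at 0.1 and -0.18 at 10. For Jarid2-/-, -0.57 became -0.89 at 0.1 and -0.10 at 10.

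Over 38 loci the 5p share was 9.27% in Eed-/-, 2.20% in Ezh2-/-, 8.17% in Jarid2-/- and 4.76% in wild-type cells; it was 10.2% in Eed-/- per name, and 13.1%, 3.73%, 11.7% and 7.13% per distinct sequence. The miR-465 share was 47.6%, 61.9%, 43.1% and 46.0% over 38 loci in the same order, 35.2%, 49.8%, 31.1% and 34.1% per name, and 16.6%, 26.6%, 13.5% and 15.6% per distinct sequence, since fewer copies are then counted. For the 9 named sequences, 81 of 108 rescaled folds stayed within their counting interval. A pseudocount shrinks or widens low ratios by construction; the cause of the differences between scalings was not tested. The Jarid2-/- column is the shallowest, and members under 0.354 CPM could not be seen reliably there.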

Other observations

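Relatives of the family elsewhere on the X chromosome, miR-201, miR-547 and miR-509, with 6 loci in the tables, held 2 counts in Eed-/-, 5 in Ezh2-/-, 0 in Jarid2-/- and 0 in wild-type cells. They were thus at or near the floor in columns where the cluster held 404 to 7228 counts. Among microRNAs of the miR-34b/c and miR-449 loci, which are known from testis and from ciliated cells, the members differed in order. Their 8 loci summed to 364 CPM in Eed-/-, 571 CPM in Ezh2-/-, 471 CPM in Jarid2-/- and 472 CPM in wild-type cells, sums that miR-34c-5p dominates with 9531, 14424, 2895 and 8032 counts. Of these 8, 0 were called higher in any mutant, where all loci gave 17.5% in Eed-/-, 4.9% in Ezh2-/- and 16.3% in Jarid2-/- cells, and 0 were called lower in Eed-/-, 1 in Ezh2-/- and 1 in Jarid2-/- cells, against 15%, 24.5% and 22.8%. With 8 loci such counts do not stand apart from the background. MiR-449a-5p had the column-total order of the cluster, at 28.7 CPM in Eed-/-, 11.7 CPM in Ezh2-/-, 12 CPM in Jarid2-/- and 23.9 CPM in wild-type cells. Its Ezh2-/- and Jarid2-/- levels were nearly equal, on 376 and 102 counts, so the last step of that order carries little weight. MiR-34c-5p stood at 0.668 times wild-type in Eed-/-, 1.33 times in Ezh2-/- and 1.01 times in Jarid2-/- cells. MiR-449c-5p stood at 1.28 times wild-type in Eed-/-, 0.264 times in Ezh2-/- and 0.127 times in Jarid2-/- cells.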
